A study of Mus musculus with 18 samples.

Results

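The transcription factors that give stratified squamous epithelium its identity were followed through ultraviolet-driven skin carcinogenesis in mice. The 9 genes were Trp63, Sox2, Pitx1, Klf4, Klf5, Grhl1, Grhl3, Gata3 and Ovol1, taken by name from a table of 14521 named genes, and all 9 had a row. The tissue came from 6 female littermate SKH-1E mice, an outbred hairless strain in which every animal lacks functional Hairless, so the controls carried that defect too. All 6 mice received chronic low-dose ultraviolet B and A from solar simulators from early adulthood, and all tissue was taken after irradiation had ended. Each mouse contributed irradiated skin free of lesions (CHR), 1 papilloma (PAP) and 1 invasive carcinoma of squamous cells (cuSCC, labelled SCC in the comparisons), which makes 18 libraries with 6 in each of the 3 groups. CHR was itself solar-damaged peri-tumoural skin taken with its dermis and was not an unirradiated control, and the lesions were low-grade, well-differentiated tumours in which most but not all cells were tumour cells. Mice are named here by the number in their label, and tissues were compared within the mouse.

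Squamous epithelium renews itself from a basal layer whose cells stop dividing, move upwards and build a cornified surface. p63, encoded by Trp63, keeps basal cells in the epithelial lineage and switches on adhesion genes and basal keratins. Klf5 acts mainly in proliferating cells, whereas Klf4, Grhl1, Grhl3, Gata3 and Ovol1 act in the passage to barrier formation and terminal differentiation. Sox2 and Pitx1 have little or no expression in the epidermis between hair follicles, and both have been linked to stem-like cells of squamous tumours.

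Values are normalised reads, that is, reads per gene divided by a size factor of the library. Recovered read totals lay between 15386000 and 20982000 per library, with a median of 18874000. Keratinocyte markers were present in every group, and none of the 20 was at 3 reads or fewer in all libraries of a group. Their summed level ran from 293800 to 451000 normalised reads in CHR, from 690100 to 1131000 in PAP and from 242600 to 758300 in cuSCC. Skeletal muscle markers showed the opposite: all 14 fell from CHR to PAP, and their sum ran from 397800 to 596900 in CHR, from 172.0 to 29800 in PAP and from 488.9 to 201300 in cuSCC. A pair of libraries stood apart from the rest of their groups in muscle reads. The papilloma of mouse 2 had a muscle sum of 29800, against 172.0 to 1271 in the other 5 papillomas, and the lowest keratinocyte sum of the papillomas. The carcinoma of mouse 10 had a muscle sum of 488.9, against 75630 to 201300 in the other 5 carcinomas, a dermal fibroblast sum of 17980, against 122100 to 498700, and the highest keratinocyte sum of the carcinomas. The carcinoma of mouse 7 had a keratinocyte sum of 242600, against 404700 to 758300 in the other 5 carcinomas. Its myeloid sum was 57040, against 5068 to 22300. It was the lowest carcinoma for Trp63, Klf5, Grhl1 and Pitx1, and the part of its composition in those values was not tested. The papilloma of mouse 10 had a dermal fibroblast sum of 5499, against 53920 to 162000 in the other 5 papillomas. In whole tissue, fewer cells of a type and less RNA per cell cannot be told apart, so each factor was also measured against the keratinocyte markers of the same library.

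From CHR to PAP, Trp63, Sox2, Pitx1, Klf4 and Klf5 rose, none of the 9 fell, and Grhl1, Grhl3, Gata3 and Ovol1 did not pass the test. Calls are limma adjusted p-values under 0.05 with the mouse as a block, taken over all 14521 genes, and log2 fold changes were taken from log2(value + 1) of the deposited values, which compresses changes of weakly expressed genes. In the same comparison 52.6% of all genes were called, 23.3% as higher and 29.3% as lower. The median log2 fold change was 0.88 over the 9 factors and 0.0014 over all genes. From CHR to cuSCC, Trp63, Sox2, Pitx1 and Klf5 rose and none fell, against 38.4% of all genes called, 15.8% as higher and 22.7% as lower, with a median of 0.53 over the 9 factors and -0.0199 over all genes. Both comparisons used the same CHR libraries. From PAP to cuSCC, 0 of the 9 factors passed the limma test, against 9.85% of all genes, 8.75% as higher and 1.10% as lower. The limma-voom fit of recovered reads also called 0 of them. At an unadjusted p under 0.05, Trp63, Klf4 and Gata3 would count as lower in cuSCC than in PAP. The median from PAP to cuSCC was -0.38 over the 9 factors and -0.0185 over all genes. In a limma fit of PAP and cuSCC alone, 0 of all genes were called, with 2830 at an unadjusted p under 0.05.

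**Figure D1:**
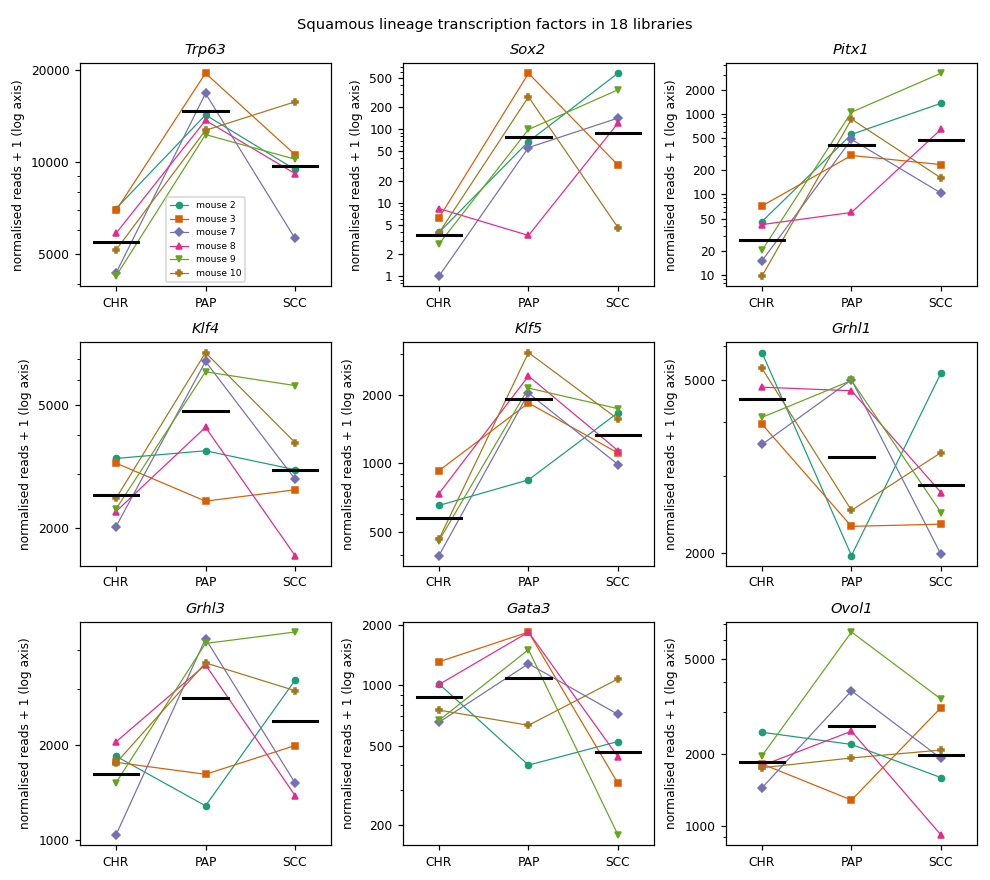
Normalised reads plus 1 (log axis) of the 9 factors in CHR, PAP and SCC, with 1 coloured line and marker for each of 6 mice and a black bar at the mean of the log values. Trp63 was higher in PAP than in CHR in 6 of 6 mice with no overlap of the groups, whereas Sox2 and Pitx1 started near the bottom of the axis and fanned out between lesions.

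**Figure D2:**
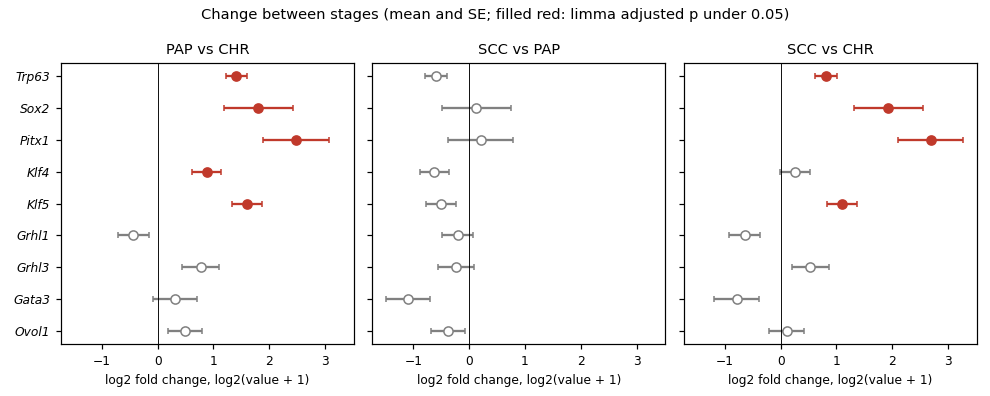
log2 fold change on the log2(value + 1) scale (x axis) of each factor in the 3 comparisons, with the SE of the limma fit over 18 libraries. Filled red points had an adjusted p under 0.05: 5 factors in PAP vs CHR, 0 in SCC vs PAP and 4 in SCC vs CHR.

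Trp63 lies at chr16:25683763-25892102 on the plus strand of GRCm38, the build of the files, with 16 exon blocks. In CHR it ran from 4245 to 7054 normalised reads with a median of 5513. In PAP it ran from 12310 to 19530 with a median of 13990, and in cuSCC from 5635 to 15750 with a median of 9851. Every papilloma was therefore above every CHR library, which held for 14.5% of all genes in the upward direction and 19.4% in the downward direction. Among carcinomas only that of mouse 7, at 5635, fell within the CHR range, and the other 5 ran from 9178 to 15750. The carcinoma of mouse 7 is the one with the lowest keratinocyte sum, named above. Trp63 rose by 1.41 ± 0.19 (log2 fold change ± SE, n = 6 mice) from CHR to PAP with a limma adjusted p of 5.13e-05, and within mice the difference of log2(normalised reads + 1) lay between 1.02 and 1.95. From CHR to cuSCC it rose by 0.81 ± 0.19 with a limma adjusted p of 0.00499, and it was higher in 6 of 6 mice. cuSCC was lower than PAP in 5 of 6 mice, by -0.59 ± 0.19, which missed the threshold with a limma adjusted p of 0.0665. Mouse 10 was the exception, with 12710 normalised reads in its papilloma and 15750 in its carcinoma, and without mouse 10 the difference passed the test at -0.77 with a limma adjusted p of 0.0142. That carcinoma is the library with few muscle and fibroblast reads named above, and the part of its composition in this value was not tested. The order of the means was PAP, cuSCC and CHR, and the step from PAP to cuSCC missed the adjusted threshold in the fit of all mice. Reads were summed over the gene, so the full-length and the N-terminally truncated p63 isoforms were not separated.

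Klf5, a Krüppel-like zinc-finger factor of proliferating basal cells at chr14:99298691-99315036 on the plus strand, had a similar course. It ran from 394.9 to 929.3 normalised reads in CHR with a median of 560.5, from 847.0 to 3051 in PAP with a median of 2082, and from 988.8 to 1735 in cuSCC with a median of 1349. All 6 carcinomas were above all CHR libraries, which held for 8.58% of all genes in the upward and 11.3% in the downward direction, and the papilloma of mouse 2 alone among papillomas fell within the CHR range. That is the papilloma with the muscle reads named above, whose part in its Klf5 level was not tested. Klf5 rose by 1.60 ± 0.27 from CHR to PAP (limma adjusted p = 0.000295) and by 1.10 ± 0.27 from CHR to cuSCC (limma adjusted p = 0.00658), in 6 of 6 mice each time. The difference between cuSCC and PAP was -0.50 ± 0.27, with a limma adjusted p of 0.275.

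Klf4, its relative of the suprabasal layers, at chr4:55527143-55532466 on the minus strand, was high in the papillomas of some mice. It ran from 2025 to 3354 normalised reads in CHR with a median of 2401, from 2445 to 7343 in PAP with a median of 5298, and from 1634 to 5753 in cuSCC with a median of 2983. The papillomas of mice 7, 9 and 10 held between 6370 and 7343 normalised reads, and those of mice 2 and 3 lay within or next to the CHR range. Klf4 rose by 0.88 ± 0.27 from CHR to PAP with a limma adjusted p of 0.0146 and was higher in 5 of 6 mice. This call rested on single mice: the limma adjusted p was 0.0679 without mouse 7 and 0.0623 without mouse 10. The papilloma of mouse 10, the highest for Klf4, is the one with few fibroblast reads named above, whose part was not tested. cuSCC did not pass the test against CHR, with 0.25 ± 0.27 and a limma adjusted p of 0.481, nor against PAP, with -0.62 ± 0.27 and a limma adjusted p of 0.168.

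Grhl1 and Grhl3 encode grainyhead-like factors that drive genes of cell junctions, barrier and wound closure, and neither passed the test in the fit of all 18 libraries as scaled by the authors. Grhl1, at chr12:24572283-24617391 on the plus strand, ran from 3551 to 5781 normalised reads in CHR with a median of 4457, from 1970 to 5004 in PAP with a median of 3613, and from 1982 to 5187 in cuSCC with a median of 2613. The papillomas fell into low values of 1970 to 2504 in mice 2, 3 and 10 and high values of 4722 to 5004 in mice 7, 8 and 9. The change to PAP was -0.43 ± 0.28 with a limma adjusted p of 0.209. Grhl1 was lower in cuSCC than in CHR in 6 of 6 mice, by -0.64 ± 0.28, and the limma adjusted p of 0.0851 missed the threshold. It passed without mouse 2 (-0.74, limma adjusted p = 0.028) and in a fit of the SCC and CHR libraries alone (limma adjusted p = 0.00423). Grhl3, at chr4:135541888-135573630 on the minus strand, ran from 1033 to 2039 normalised reads in CHR with a median of 1751, from 1278 to 4329 in PAP with a median of 3605, and from 1378 to 4548 in cuSCC with a median of 2474. Its papillomas of mice 7, 8, 9 and 10 were all above the CHR range and those of mice 2 and 3 were not. The change to PAP of 0.77 ± 0.33 missed the threshold with a limma adjusted p of 0.0658, and it passed without mouse 2 at 1.02 with a limma adjusted p of 0.0188. The papilloma of mouse 2, the lowest of the 6 for Grhl1 and Grhl3, is the one with the muscle reads, and the part of its composition was not tested. The Grhl3 change also passed when each library was centred on its own median, at 0.91 with a limma adjusted p of 0.0329. That centring moved the median of all genes from 0.0014 to 0.14. From CHR to cuSCC Grhl3 differed by 0.53 ± 0.33, with a limma adjusted p of 0.219 and higher values in 5 of 6 mice.

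Ovol1, a zinc-finger repressor that takes keratinocytes out of the cell cycle, lies at chr19:5549136-5560646 on the minus strand. It ran from 1442 to 2461 normalised reads in CHR with a median of 1801, from 1283 to 6450 in PAP with a median of 2339, and from 917.1 to 3385 in cuSCC with a median of 1995. Both lesion groups spread above and below CHR, and mouse 9 had the highest value in each. No comparison passed the test: the change to PAP was 0.49 ± 0.31 (limma adjusted p = 0.198) and that to cuSCC 0.11 ± 0.31 (limma adjusted p = 0.812). Of its exon bases, 19.8% are shared with the pseudogene Gm31166 on the opposite strand, and reads of the pair cannot be told apart if counting ignored strand, which is not given in the sources used here.

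Gata3, a zinc-finger factor of epidermal differentiation and barrier lipids that also directs T helper and innate lymphoid cells, lies at chr2:9857078-9890034 on the minus strand. It ran from 652.8 to 1313 normalised reads in CHR with a median of 880.8, from 398.0 to 1851 in PAP with a median of 1397, and from 177.2 to 1077 in cuSCC with a median of 480.3. The lowest library was the carcinoma of mouse 9 at 177.2, from an animal whose papilloma held 1510. Within mice, cuSCC was lower than PAP in 4 of 6, and it was higher in mice 2 and 10. The difference between cuSCC and PAP was -1.10 ± 0.40 with a limma adjusted p of 0.102, and without mouse 10 it passed at -1.46 with a limma adjusted p of 0.0276. The highest carcinoma (mouse 10, 1077) and the lowest papilloma (mouse 2, 398.0) were the libraries that stood apart in muscle reads. The part of their composition in these values was not tested. Gata3 differed by 0.31 ± 0.40 from CHR to PAP (limma adjusted p = 0.539) and by -0.79 ± 0.40 from CHR to cuSCC (limma adjusted p = 0.134). Of the 10 measured T cell and innate lymphoid markers, 9 fell from CHR to PAP and 7 from CHR to cuSCC, and none was at 3 reads or fewer throughout a group. Their summed level ran from 3423 to 6793 normalised reads in CHR, from 271.7 to 1280 in PAP and from 1013 to 3615 in cuSCC, and their part in the Gata3 values was not tested.

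Sox2, an SRY-box factor of embryonic and adult stem cells at chr3:34650405-34652461 on the plus strand, has a single exon and lies within the long transcript Sox2ot without sharing exon bases. It was close to absent from CHR, where it ran from 0 to 7.31 normalised reads with a median of 2.90, and 4 of the 6 CHR libraries held 3 reads or fewer. The value of 0 in mouse 7 allows up to 3.48 normalised reads, the level of 3 reads there, as far as counting error goes. In PAP Sox2 ran from 2.58 to 575.7 normalised reads with a median of 82.7, and in cuSCC from 3.58 to 577.8 with a median of 130.5. Lesions of 1 mouse could differ widely: mouse 8 had 2.58 in its papilloma and 120.2 in its carcinoma, whereas mouse 10 had 274.8 in its papilloma and 3.58 in its carcinoma. Sox2 was thus at the CHR level in 1 papilloma and 1 carcinoma, and above every CHR library in the other 5 lesions of each type. It rose by 1.80 ± 0.62 from CHR to PAP (limma adjusted p = 0.0258) and by 1.93 ± 0.62 from CHR to cuSCC (limma adjusted p = 0.0254). On recovered reads, where low values are not compressed, limma-voom gave 4.87 ± 1.79 and 5.05 ± 1.79 on the log2 scale, and the adjusted p-values were 0.0349 and 0.0403. The call for PAP was lost without mouse 3, 7 or 9, with limma adjusted p-values of 0.064, 0.0581 and 0.0548, and that for cuSCC without mouse 2, 7 or 9, with limma adjusted p-values of 0.0783, 0.072 and 0.0968. PAP and cuSCC differed by 0.13 ± 0.62, with a limma adjusted p of 0.92. Sox2 is also made by Merkel and Schwann cells of the skin. Of the Merkel markers Krt18, Isl1 and Piezo2 were measured and Atoh1, Krt8 and Krt20 had no row, and their sum ran from 261.2 to 377.5 normalised reads in CHR, from 271.7 to 848.8 in PAP and from 219.4 to 937.1 in cuSCC. Most of that sum was Piezo2. Krt18, a keratin of simple epithelia as well as Merkel cells, went from 12.2 ± 5.04 normalised reads in CHR to 56.6 ± 63.04 in PAP and 81.8 ± 65.3 in cuSCC (SD, n = 6). It was higher than in CHR in 6 of 6 mice for each lesion, and it rose from CHR to cuSCC by 0.97 ± 0.35 (limma adjusted p = 0.0425), while PAP against CHR missed the threshold (limma adjusted p = 0.114). The 5 measured Schwann markers summed to 1272 to 2517 in CHR, 1357 to 2280 in PAP and 1279 to 1686 in cuSCC, and 3 of them fell from CHR to PAP. The part of these cells in the Sox2 values was not tested.

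Pitx1, a homeodomain factor known from hindlimb and pituitary development, lies at chr13:55825051-55836192 on the minus strand. It ran from 8.64 to 70.8 normalised reads in CHR with a median of 30.1, from 58.6 to 1045 in PAP with a median of 516.5, and from 102.6 to 3185 in cuSCC with a median of 435.8. All 6 carcinomas exceeded all CHR libraries, which held for 8.58% of all genes in the upward and 11.3% in the downward direction. Of the 6 papillomas 5 did, the exception being mouse 8. The highest library was the carcinoma of mouse 9 at 3185, and the next was that of mouse 2 at 1347. Pitx1 rose by 2.48 ± 0.59 from CHR to PAP (limma adjusted p = 0.0034) and by 2.69 ± 0.59 from CHR to cuSCC (limma adjusted p = 0.00344), in 6 of 6 mice each time. The limma-voom values on recovered reads were 4.14 ± 0.90 and 4.65 ± 0.90. PAP and cuSCC differed by 0.20 ± 0.59, with a limma adjusted p of 0.873 and higher values in 3 of 6 carcinomas. Because Pitx1 marks hindlimb skin during development, the other body-position genes were read beside it: of 5 measured (Hoxa9, Hoxc10, Hoxd9, Tbx5 and Tbx15), 4 fell from CHR to PAP and none rose, and Tbx4 had no row. Their sum ran from 916.8 to 1286 normalised reads in CHR, from 50.1 to 1489 in PAP and from 98.5 to 927.6 in cuSCC. The value of 1489 was the papilloma of mouse 10, and the other 5 papillomas ran from 50.1 to 294.8. Hoxa9 held 285.6 ± 584.4 normalised reads in PAP (SD, n = 6).

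Divided by exon length, the factors kept a wide span of abundance. In CHR the mean levels per kilobase were highest for Klf4 (857.3 ± 180.7 normalised reads per kilobase, SD, n = 6) and Grhl1 (828.0 ± 155.8), followed by Trp63 (667.8 ± 147.2), Grhl3 (592.9 ± 124.9) and Ovol1 (536.0 ± 96.5). Gata3 (226.8 ± 65.0) and Klf5 (116.7 ± 39.4) were lower, and Pitx1 (12.5 ± 8.89) and Sox2 (1.63 ± 1.26) lower still. Neighbours among the first 5 differed by less than their summed SDs. In PAP the order opened with Trp63 (1774 ± 329.8) and Klf4 (1684 ± 656.1), and Grhl1 (646.5 ± 264.1) came after Grhl3 (1112 ± 474.0) and Ovol1 (860.0 ± 534.4). In cuSCC the order again opened with Trp63 (1209 ± 389.4) and Klf4 (1082 ± 455.7), Klf5 stood at 262.7 ± 62.3 and Gata3 at 136.2 ± 80.2, and Sox2 stayed the lowest of the 9 at 98.6 ± 106.5. The mean of Pitx1 in cuSCC, 355.4 ± 448.9, was carried by mouse 9: without that carcinoma it was 186.7 ± 195.8 (n = 5), and the median was 164.1 against 259.3 for Klf5.

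Sox2 and Pitx1 varied more between libraries than the other factors in every group. The SD of log2(normalised reads + 1) was 2.52 in PAP and 2.54 in cuSCC for Sox2, and 1.49 and 1.92 for Pitx1, where the median gene had 0.414 and 0.413. Trp63 had 0.255 in PAP and 0.476 in cuSCC, and in PAP it was the least variable of the 9. In CHR Sox2 had 1.065 and Pitx1 1.11 on few reads, the other factors had SDs between 0.251 and 0.476, and the median gene had 0.221.

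From CHR to PAP, 12 of the 20 keratinocyte genes were called higher, 2 lower (Cldn1 and Prss8), and 6 were not called. Since their summed level was higher in papillomas, the differences of each factor were also taken relative to the mean of the 20 keratinocyte genes in each library. That mean was higher in PAP than in CHR in 6 of 6 mice, by 0.69 ± 0.48 (mean log2 difference ± SD), lower in cuSCC than in PAP in 5 of 6, by -0.56 ± 0.56, and 0.13 ± 0.28 higher in cuSCC than in CHR. Krt5, Krt14, Cdh1 and Rab25 are also counted here as targets of p63 or grainyhead factors, and without them the values below kept their direction, other than that of Ovol1 in cuSCC against CHR. Relative to the list, Trp63 was higher in PAP by 0.73 ± 0.29 and Klf5 by 1.04 ± 0.60, each in 6 of 6 mice and each with an exact two-sided sign-flip permutation p of 0.0312, the smallest that 6 mice allow. Grhl1 was lower by -1.13 ± 0.40 in 6 of 6 mice, with the same exact permutation p of 0.0312. Sox2 was higher by 3.75 ± 2.91 and Pitx1 by 3.21 ± 2.16, each in 5 of 6 mice with an exact permutation p of 0.0625. Klf4 (0.21), Grhl3 (0.11), Gata3 (-0.37) and Ovol1 (-0.19) stayed closer to 0. In cuSCC against CHR, Trp63 (0.69), Klf5 (1.07), Pitx1 (3.98) and Grhl1 (-0.79) each moved 1 way in 6 of 6 mice with an exact permutation p of 0.0312, and Sox2 (4.51) was higher in 5 of 6 with an exact permutation p of 0.0625. In all 27 such differences were computed, and these permutation p-values are not adjusted.

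With all genes centred on the keratinocyte list, limma called Trp63, Sox2, Pitx1 and Klf5 higher and Grhl1 lower in PAP than in CHR, on the log2(normalised reads + 1) scale. Of all genes, 3.04% were then called higher and 51.9% lower, so 1 factor called lower is not out of the ordinary. The adjusted p-values from limma were 0.00542 for Trp63, 0.0221 for Sox2, 0.00258 for Pitx1, 0.00356 for Klf5 and 0.000705 for Grhl1. Klf4 was no longer called, at 0.21 with a limma adjusted p of 0.482. On the compressed deposited scale Sox2 was not called under this centring either, at 1.12 with a limma adjusted p of 0.098. In cuSCC against CHR the same 5 factors were called in the same directions, against 4.79% of all genes higher and 16.4% lower. From PAP to cuSCC the centring gave no call among the 9 factors, against 23.6% of all genes higher and 0.0482% lower. Between these lesions Trp63 differed from the list by -0.04 ± 0.46 (mean ± SD) and was higher relative to it in 3 of 6 mice. The part of keratinocyte content in the Trp63 level of cuSCC was not tested.

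**Figure D3:**
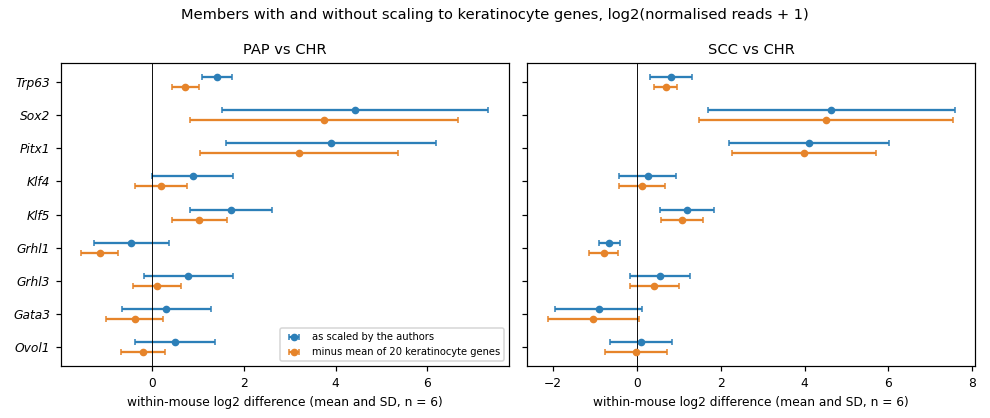
Within-mouse difference of log2(normalised reads + 1) (x axis, mean and SD, n = 6 mice) of the 9 factors in PAP and SCC against CHR, as scaled by the authors (blue) and after subtraction of the mean of 20 keratinocyte genes (orange). For Trp63 in PAP the difference went from 1.42 to 0.73, and for Grhl1 from -0.45 to -1.13.

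A mixed model per gene with the mouse as a random effect, the form used for progression in this study, sorted genes into early (different in PAP and cuSCC against CHR), late and stepwise classes at unadjusted p under 0.05. Trp63, Sox2, Pitx1 and Klf5 came out early, as did 41.1% of all genes, and none of the 9 came out late (2.20% of all genes) or stepwise (0.523%). The 4 early factors stayed early with adjusted p-values and without any 1 mouse. Klf4, Grhl3, Gata3 and Ovol1 missed the threshold between cuSCC and CHR in this model. Grhl1 passed between cuSCC and CHR, but neither the step to PAP nor that to cuSCC passed, so it had no class. Gata3 came out late when mouse 10 was left out.

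Of 16 genes that p63 is known to drive, 13 rose and none fell from CHR to PAP, with a median fold change of 1.29, and 10 rose and none fell from CHR to cuSCC, with a median of 0.76. Itgb4 and Itga3, the integrin chains that anchor basal cells to laminin, rose in PAP by 2.05 ± 0.16 and 2.02 ± 0.24 in 6 of 6 mice each (limma adjusted p = 1.14e-06 and 1.88e-05). Itgb4 went from 3630 ± 1680 normalised reads in CHR to 15300 ± 6715 in PAP and 10730 ± 4051 in cuSCC (SD, n = 6). Krt5, the basal keratin, and Ripk4, a kinase of epidermal differentiation, were the 2 genes of this list that fell from PAP to cuSCC, with changes of -0.88 ± 0.26 (limma adjusted p = 0.0497) and -0.70 ± 0.14 (limma adjusted p = 0.0116). Krt5 held 46430 ± 12890 normalised reads in CHR, 140400 ± 31190 in PAP and 84140 ± 39180 in cuSCC. Between cuSCC and PAP no gene was called in the fit of the 2 groups alone, nor without mouse 7 or mouse 8. These 2 calls were absent there too. Krt5 and Krt14 are also in the keratinocyte list, and the part of the keratinocyte level in the values of the p63 targets was not tested.

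The RefSeq promoter windows of these p63 targets and of the 9 factors were searched for a motif on both strands. Whether the targets followed Trp63 from library to library was not tested. The windows ran from 250 bases before to 50 after the start site. The motif was the single decamer half-site of p63, a member of the p53 family. Of the 9 target genes with a window, Krt5 and Col17a1, a hemidesmosome collagen, held it, against 9.55% of 27025 genes, and of the 5 factors with a window none did. The sites are shown on GRCm38.p6 in the direction of the gene, with the motif in capitals, at chr15:101712981-101713010 for Krt5 and chr19:47692008-47692037 for Col17a1, both on the minus strand.
Krt5: gctgccccccAGGCATGCCCagcccactaa
Col17a1: acctttgtcaGGACTTGTTTtttgaaggaa
The motif begins at base -95 from the start site in Krt5 and 15 in Col17a1. A match of letters is not evidence of binding, and p63 is known to work largely from distant enhancers, which such windows leave out.

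The other lists went less one way. Of 27 other epidermal transcription factors, 9 rose and 4 fell from CHR to PAP, with a median of 0.11, and 5 rose and 5 fell from CHR to cuSCC. Sox15, an SRY-box factor like Sox2, rose by 2.06 ± 0.22 in PAP (limma adjusted p = 9.28e-06), from 91.3 ± 33.5 to 605.2 ± 212.0 normalised reads, and held 567.6 ± 287.0 in cuSCC. Elf3, an epithelial ETS factor, rose by 1.84 ± 0.42 (limma adjusted p = 0.0028). Gata6, a relative of Gata3 that marks sebaceous duct and upper follicle, fell by 1.28 ± 0.26 (limma adjusted p = 0.00131), from 105.9 ± 38.0 to 24.1 ± 38.9 normalised reads, and Tfap2b fell by 1.17 ± 0.33 (limma adjusted p = 0.00987). All 8 sebaceous gland markers fell in the same comparison, with a median of -2.78, and their part in the Gata6 values was not tested. Tfap2a, an AP-2 factor of basal keratinocytes, was the 1 factor of this list that fell from PAP to cuSCC. Its change was -0.72 ± 0.15, lower in 6 of 6 mice (limma adjusted p = 0.0141). That call was absent from the fit of the 2 groups alone and without mouse 7 or mouse 8.

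Of 8 genes known to depend on grainyhead factors, Rab25, a small GTPase of membrane traffic, rose from CHR to PAP by 0.73 ± 0.22 (limma adjusted p = 0.0131), and the other 7 were not called, with a median of -0.25 over the list. Of the 3 genes that Ovol1 is known to repress, Myc, the growth regulator, rose by 1.15 ± 0.15 (limma adjusted p = 3.91e-05), while Zeb1, a driver of the mesenchymal state, and Id2, an inhibitor of differentiation, fell, with changes of -1.68 ± 0.23 (limma adjusted p = 5.9e-05) and -1.08 ± 0.19 (limma adjusted p = 0.000378). Zeb1 rose again from PAP to cuSCC by 1.18 ± 0.23 in 6 of 6 mice (limma adjusted p = 0.0119). In the fit of the 2 groups alone, and without mouse 7 or mouse 8, no gene was called from PAP to cuSCC. Fibroblasts express Zeb1, and of 10 dermal fibroblast markers 8 fell from CHR to PAP and 5 rose from PAP to cuSCC. Their sum ran from 141000 to 311000 normalised reads in CHR, from 5499 to 162000 in PAP and from 17980 to 498700 in cuSCC, and their part in the Zeb1 values was not tested.

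**Figure D4:**
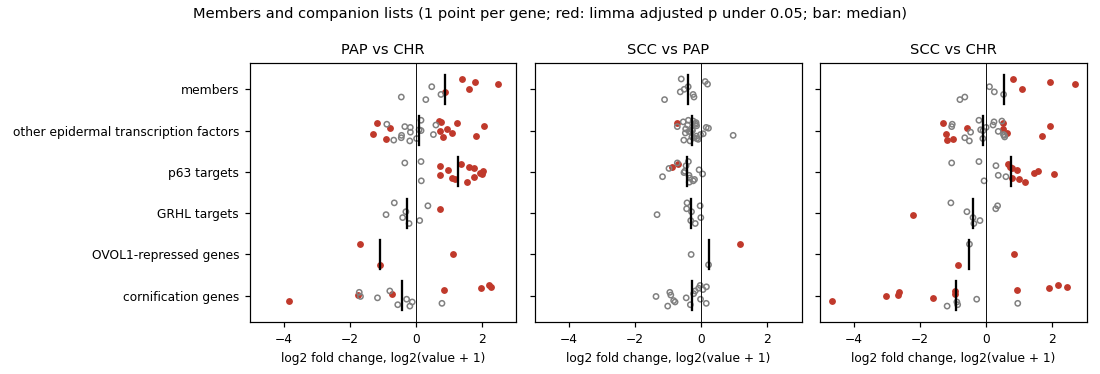
log2 fold change on the log2(value + 1) scale (x axis) of the 9 factors and 5 companion lists in the 3 comparisons, 1 point per gene, red where the limma adjusted p was under 0.05, with a bar at the median. In PAP vs CHR 13 of 16 p63 targets were called and higher, whereas cornification genes were called on both sides of 0. Of all genes, 23.3% were called higher and 29.3% lower in that comparison.

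Of 16 measured cornification genes, the products of the suprabasal layers, 4 rose and 3 fell from CHR to PAP and 4 rose and 7 fell from CHR to cuSCC. Calls over all genes went both ways too, with 23.3% higher and 29.3% lower in PAP, and 15.8% and 22.7% in cuSCC. Sprr2d, a cross-bridging protein of the cornified envelope, rose by 2.28 ± 0.61 in PAP (limma adjusted p = 0.00739) and Tgm3, a transglutaminase, by 2.21 ± 0.46 (limma adjusted p = 0.00132). Flg2, a filaggrin-like barrier protein, fell by 3.83 ± 0.79 (limma adjusted p = 0.00135), from 14950 ± 7506 to 1294 ± 885.1 normalised reads, and Krt10, the suprabasal keratin, fell by 1.75 ± 0.69 (limma adjusted p = 0.0476). The mean log2 level of the 16 genes ran from 10.80 to 12.59 between papillomas and from 10.25 to 12.15 between carcinomas, so lesions of the same type differed in how far they expressed these genes.

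Grhl1 had the highest r of the 9 factors with that level among papillomas, and among carcinomas when all 6 were kept. Across the 6 papillomas Pearson's r was 0.96 (exact permutation p = 0.0514, adjusted over 14493 genes 0.648) and Spearman's rho 0.771 (exact permutation p = 0.103, adjusted 0.683), and r was 0.99 without mice 7 and 10, the farthest from the median. Across the 6 carcinomas r was 0.894 (exact permutation p = 0.0111, adjusted over 14515 genes 0.617) and rho 0.771 (exact permutation p = 0.103, adjusted 0.706). Without mice 2 and 10 that r was 0.403, so the relation in carcinomas rested on those animals, and Trp63 then had the highest r at 0.848. With all 6 carcinomas Trp63 had r of 0.643, Klf5 0.614 and Grhl3 0.47, with adjusted permutation p-values of 0.716, 0.748 and 0.821, and Grhl3 had 0.701 in papillomas (adjusted permutation p = 0.741). In all, 18 such relations were computed, and none passed after adjustment.

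**Figure D5:**
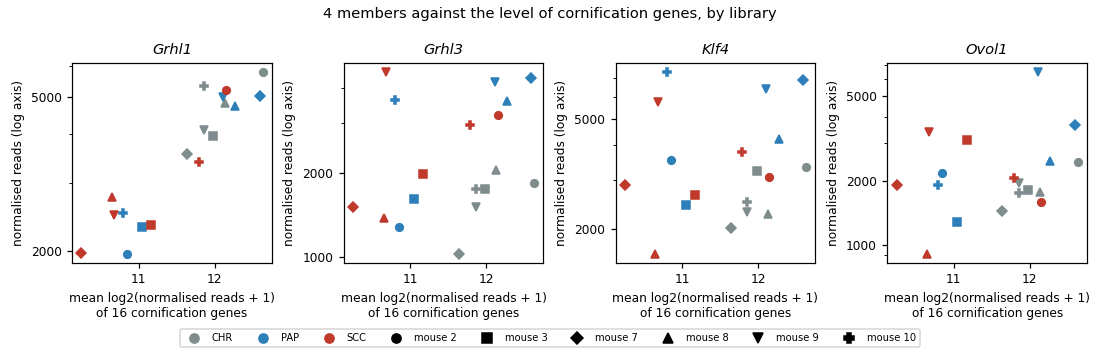
Normalised reads (log axis) of Grhl1, Grhl3, Klf4 and Ovol1 against the mean log2(normalised reads + 1) of 16 cornification genes, 1 point per library, with colour for the group and marker shape for the mouse. The papillomas of mice 2, 3 and 10 lay low on both axes for Grhl1 and those of mice 7, 8 and 9 high, with r of 0.96 over the 6.

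After subtraction of the group means, the genes whose values followed each factor most closely over the 18 libraries were found by Pearson's r, which describes libraries that share mice and tissue composition. Nearest to Trp63 were Tomm6 (r = 0.867), Bnc1 (0.85), which encodes basonuclin, a zinc-finger protein of basal keratinocytes, and Mb21d2 (0.832). Nearest to Klf5 were Pak6 (r = 0.893), 4732471J01Rik (0.888) and Wnt4 (0.859), and nearest to Klf4 were Zdhhc13 (r = 0.899), Psat1 (0.894) and Gtf2f2 (0.883). Nearest to Grhl1 were Ly6g6e (r = 0.945), Elovl7 (0.922), a fatty acid elongase, and Ankrd35 (0.92). Nearest to Grhl3 were Pla2g4e (r = 0.914), Ppl (0.904), the cornified envelope protein periplakin, and Cblc (0.901). Gata3 had the closest neighbour of all 9, the zinc transporter Slc39a8 (r = 0.959), followed by Pdzd2 (0.879) and Grpr (0.877). Nearest to Ovol1 were Metrnl (r = 0.883), Nedd8 (0.856) and Lgalsl (0.851). Nearest to Pitx1 were Bag2 (r = 0.902), Nek2 (0.861), a centrosome kinase, and Dtl (0.832), a replication-linked ubiquitin ligase adaptor. Nearest to Sox2 were Kcnq5 (r = 0.853), Sptb (0.831) and Hs3st3a1 (0.794).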

How the data were processed

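Per the labels and the methods of the study, total RNA libraries were sequenced in pairs on an Illumina HiSeq, aligned with MOSAIK to mm10 (GRCm38) and counted per gene with HTSeq; versions, annotation release and strandedness are not given in the sources used here. The authors divided counts by size factors and applied a variance-stabilising transformation. The deposited values are whole-number scores on the linear scale of that transformation, with 39 for 0 reads. The methods also name a scaling of batch medians, and the labels give no batch.

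The transformation was inverted with a zero level of 39.13 and 1 size factor per library (0.835 to 1.18), and 98.6% of all values and 100% of values under 100 then equalled the rounded transform of a whole number of reads. Only low values, where steps are wide, test this; high read counts are close estimates. Totals were 15386000 to 20982000 reads; intervals and floors cover counting error only. The 21 rows without a symbol, at most 0.236% of a total, were left out. No library pair shared more than 2.24% of its values. The main test was limma 3.58.1 in R 4.3.3 on log2(value + 1) with the mouse as a block over 18 libraries, Benjamini-Hochberg over 14521 genes and a threshold of 0.05. The pairing comes from the animal, since tissues with 1 number are from 1 mouse; correlations of same-numbered deviations were -0.245 to 0.507. Other tests were the mixed model, solved in closed form for balanced blocks, and exact permutation tests. In 209 genes refitted with nlme 3.1.168, the calls of PAP and cuSCC against CHR were the same in 209. The fit and the inversion were tested on simulated data. Exon lengths and positions are from the reference annotation of GRCm38, in which 14447 symbols matched, 596 of them by an older symbol.

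The factors and gene lists were chosen with earlier results of these data known. All 9 factors are named; of each companion list, the 2 genes called with the strongest rise and the 2 with the strongest fall in PAP vs CHR and up to 2 each way called in SCC vs PAP; and for each factor, its 3 most similar genes. Alternatives were limma-voom on recovered reads, other pseudocounts, a filter at a mean of 10 normalised reads, other centrings, no block, the 2 groups alone and each mouse left out; centring on the keratinocyte list on the log2(normalised reads + 1) scale was chosen after seeing the data.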

Additional observations from a re-analysis of the deposited data

How the results depend on the processing

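Without the replicate block the calls of the 9 factors were the same in all 3 comparisons, and 810 genes were called between cuSCC and PAP in place of 1430. That count was 0 in a fit of the 2 groups alone, 4972 with libraries centred on the keratinocyte list and 3440 with the same centring of normalised reads, and leaving out 1 mouse gave 0 to 1995 (0 without mouse 7 or 8, 471 without mouse 3). Between cuSCC and CHR the keratinocyte centrings gave 2967 and 3073 genes in place of 5583, and leaving out 1 mouse 4214 to 5482; between PAP and CHR it gave 6545 to 7319. Leaving out 1 mouse, the number of factors called was 3 to 6 between PAP and CHR (3 without mouse 7), 0 to 2 between cuSCC and PAP (2 without mouse 10) and 3 to 4 between cuSCC and CHR. Scaling set the split of calls: genes called higher made up 44.4% between PAP and CHR and 41% between cuSCC and CHR, 57.7% and 52.5% with centring on the library median, and 5.54% and 22.6% with centring on the keratinocyte list, which moved the median of all genes in PAP vs CHR to -0.69. The cause of the other differences was not tested.

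Changes in sign touched no called value. With the keratinocyte centring on the deposited scale and on normalised reads, PAP vs CHR was -0.374 and -0.367 for Gata3 and -0.194 and -0.185 for Ovol1. SCC vs PAP was then 0.045 and 0.034 for Klf5, 0.34 and 0.345 for Grhl1, 0.313 and 0.317 for Grhl3, and 0.165 and 0.161 for Ovol1. SCC vs CHR was then -0.029 and -0.024 for Ovol1. Leaving out 1 mouse gave ranges across 0 in SCC vs PAP for Sox2 (-0.30 to 0.72), Pitx1 (-0.26 to 0.65), Grhl1 (-0.52 to 0.012) and Grhl3 (-0.54 to 0.013), and in SCC vs CHR for Ovol1 (-0.026 to 0.31). Relative to the median of the keratinocyte list, Klf5 was -0.063 from PAP to cuSCC, and Ovol1 was 0.026 from CHR to PAP and 0.0898 from CHR to cuSCC, and relative to the shorter list Ovol1 was 0.047 in SCC vs CHR. With 5 mice the sign-flip test cannot reach the threshold, so those values carry no call. Sox2 in CHR rests on single reads, which limits the precision of its fold change.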
